A study of Mus musculus with 11 samples.

Results

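The genes described here encode the extracellular matrix of the kidney and the enzymes and cytokines around it: collagens, laminins, proteoglycans, elastic fibre and adhesive proteins, proteases with their inhibitors, and 3 stromal genes. The set was a list of 42 genes, matched to the bead array by the gene symbol in the platform annotation, and a probe was tested where its detection p-value was under 0.05 on at least 3 arrays. Of the 42 genes, 40 had a named probe and 38 had a tested one. The list covered 79 of the 45281 probes on the array and 59 of the 22856 tested probes. Col6a3 and Fbn1 were not named in the annotation used here, Fbln5 and Postn were below the detection filter, and Ctgf was found under its current symbol, Ccn2. The values that follow are log2 intensities of the brightest tested probe of each gene, and 37 of the 38 main probes had a detection p under 0.01 on all 11 arrays. The exception was Col5a2, detected in 3 of 4 WT, 2 of 3 Het and 3 of 4 KO kidneys.

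Kidney RNA came from 11 female mice aged 8 weeks (postnatal day 58 or 59), 1 array per mouse, of the genotypes Cldn16 +/+ (WT, n = 4), Cldn16 +/- (Het, n = 3) and Cldn16 -/- (KO, n = 4). All mice shared a mixed background, labelled Sv129 / C57BL/6N and described as 129S7/SvEvBrd-Hprtb-m2 (F2) with a backcross to C57BL/6N, and all were fed a standard diet after weaning. The RNA was taken from kidneys whose poles had been cut away. How the Cldn16 allele was made is not stated in the labels. Slide 1 held 2 WT, 2 Het and 2 KO arrays, and slide 2 held 2 WT, 1 Het and 2 KO arrays.

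In the kidney, matrix forms basement membranes and the interstitium. Basement membranes under the tubules, vessels and glomerular capillaries are sheets of type IV collagen and laminin joined by nidogens and the heparan sulfate proteoglycans perlecan and agrin; the glomerular sheet is built from the Col4a3, Col4a4 and Col4a5 chains and the laminin that contains the beta 2 chain. The interstitium between the tubules holds fibrillar collagens, type VI collagen, small leucine-rich proteoglycans, elastic fibres and fibronectin, made largely by fibroblasts and increased in kidney fibrosis. Cldn16 encodes claudin-16, which lines the junctions between cells of the thick ascending limb and lets magnesium and calcium pass.

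Arrays had between 18854 and 19742 probes with a detection p under 0.01. The single Cldn16 probe was at 9.61, 9.17, 9.68 and 9.59 in WT, 9.28, 9.38 and 9.37 in Het, and 9.35, 8.59, 8.86 and 9.15 in KO kidneys, and KO 1 lay within the WT range. It gave 9.51 ± 0.23 (SD, n = 4) in WT and 8.99 ± 0.33 (n = 4) in KO kidneys, a difference of -0.53 ± 0.16 (SE) that did not pass limma's test (adjusted p = 0.227); its place relative to the altered part of the gene is not known here, so it does not check the labels. All 10 kidney tubule markers were detected on every array. Of 11 podocyte markers 6 were tested, and all 6 were detected on every array. Some arrays stood apart. Summed over 7 tested adipose markers of 10, the intensity reached 1469 in WT, 4362 in Het and 3951 in KO kidneys, and the arrays KO 1, Het 3 and KO 4 had the highest adipose scores. Het 2 had the lowest value of the 11 arrays for 13 of the 38 matrix genes.

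No matrix gene of the list passed an adjusted p of 0.05 in any of the 3 comparisons (limma with Benjamini-Hochberg adjustment over 22856 probes). In KO against WT, where 0.0394% of all tested probes passed (9 probes), the smallest adjusted p of the list was 0.192, for the laminin chain Lamb2. In Het against WT and in KO against Het, 0% of tested probes passed, although 1543 and 1241 probes had an unadjusted p under 0.05; the smallest adjusted p-values of the list in limma were 0.687 and 0.889. No difference of the 38 genes exceeded 1.51-fold in any comparison (Fn1, Het against WT). The 95% interval of the log2 difference lay within -1 to 1, a doubling either way, for all 38 genes in KO against WT and in KO against Het, and for 36 of 38 in Het against WT. It lay within -0.5 to 0.5 for 19, 16 and 13 of the 38 genes respectively, and the median SE was 0.15 in KO against WT and 0.16 in the others.

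By its median, the list lay below its WT level in the heterozygotes (-0.22, and -0.089 without Het 2) and near it in the KO kidneys, where the slides gave -0.19 and 0.079. In KO against WT, 11 genes were higher and 27 lower, with a median difference of -0.057 on the log2 scale, against 0.0023 over 12179 genes with 1 probe each. At an unadjusted p under 0.05, 2 of the 38 genes were higher (Lamb2 and Col4a2), next to 6.91% of all genes, and 0 were lower, next to 5.81%. The KO and WT arrays did not overlap for 1 gene that was higher (Lamb2), next to 3.86% of all genes, and for 0 that were lower, next to 3.37%. With 1 probe per gene, these shares of the list are near the background or below it. Over the list's 59 tested probes, 6 were higher and 1 lower at an unadjusted p under 0.05, next to 1537 and 1411 of all 22856. With 1 array left out, 1 or 2 genes were higher and 0 to 3 lower at that threshold, the 3 without WT 3. A shift of each array to a common median, in place of quantile normalization, moved the median of all probes by 0.11 in KO against WT and by 0.096 in Het against WT. It turned the list's median in KO against WT to 0.066, with 23 of 38 genes higher.

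In Het against WT, 6 genes were higher and 32 lower, and the median difference was -0.22, against -0.0083 over all genes. At an unadjusted p under 0.05, 7 of the 38 genes were lower (Col4a1, Lamc1, Agrn, Col6a1, Fn1, Mmp14 and Timp3), next to 3.09% of all genes. On the higher side there was 1 (Lamb2), next to 3.2%, and the fits without WT 2, WT 3, WT 4, Het 2, Het 3, KO 1, KO 2, KO 3 or KO 4 had 0. The arrays did not overlap for 5 genes that were lower (Col4a1, Lamb1, Lamc1, Mmp14 and Timp3), next to 3.73% of all genes, and for 0 that were higher, next to 3.06%. Without the array Het 2 the count of lower genes at an unadjusted p under 0.05 went from 7 to 1 and the median to -0.089. Without WT 1 or WT 2 the count was 3 or 2. With the slide as a block 5 genes were lower (without Lamc1 and Agrn) and 0 higher. With each array shifted to a common median it was 0.

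In KO against Het, 29 genes were higher and 9 lower, and the median difference was 0.17, against 0.0091 over all genes. At an unadjusted p under 0.05, 5 genes were higher (Hspg2, Col4a4, Col4a2, Col4a1 and Lamc1), next to 3.01% of all genes, and 0 were lower, next to 2.33%. The arrays did not overlap for 3 genes that were higher (Col4a2, Lamc1 and Timp3), next to 3.52%, and for 0 that were lower, next to 2.73%. Without Het 2 the count of higher genes went from 5 to 1 and the median to 0.055, and without Het 3 the count was 3. With each array shifted to a common median it was also 3. This comparison shares its KO and Het arrays with the other comparisons, so the 3 sets of values are not independent.

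**Figure D1:**
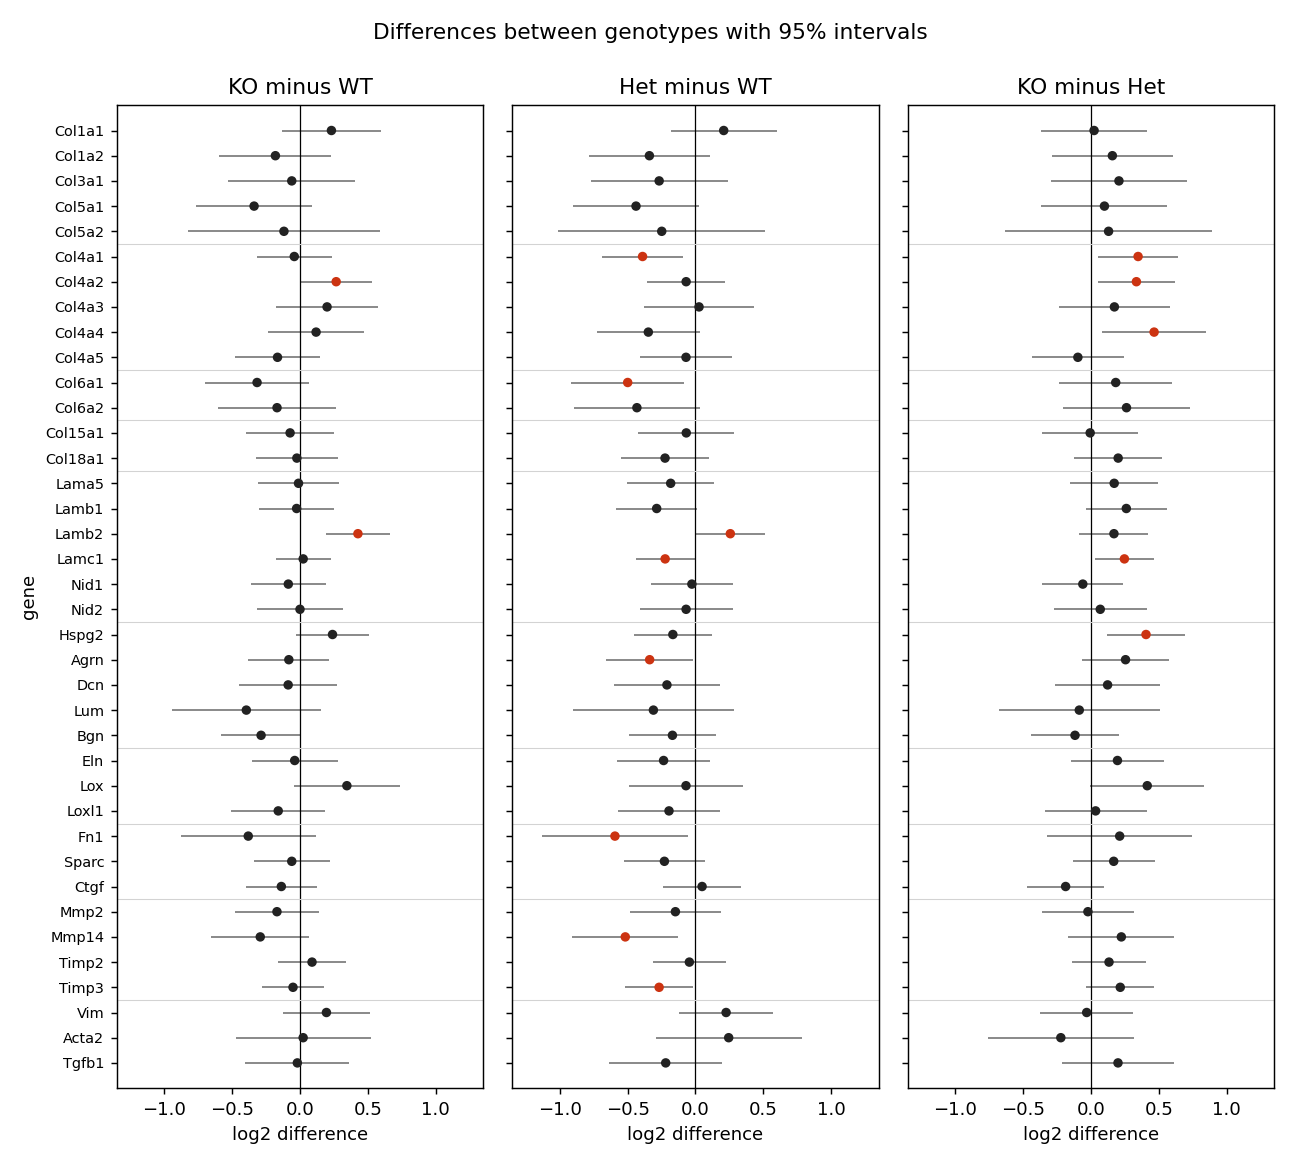
Log2 differences with 95% intervals from limma for the 38 tested matrix genes, in role order (thin lines separate the roles), for KO minus WT, Het minus WT and KO minus Het; red points have an unadjusted p under 0.05. Most points lie left of 0 in the Het minus WT panel (32 of 38) and right of 0 in the KO minus Het panel (29 of 38), and no gene passed the adjusted threshold.

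The promoter-proximal sequences of the genes with the smallest p in each comparison (Lamb2 for KO against WT, Mmp14 for Het against WT and Hspg2 for KO against Het) are shown because these members lead the results. Each is the stretch before the annotated gene start in RefSeq's promoter windows (build GRCm38.p6, plus strand, read 5′ to 3′). Of the 42 genes, 29 had a window. Capitals mark the motifs searched on both strands: the GC box (GGGCGG), the CCAAT box (CCAAT) and the TATA box (TATAAA).
Lamb2, chr9:108479612-108479846: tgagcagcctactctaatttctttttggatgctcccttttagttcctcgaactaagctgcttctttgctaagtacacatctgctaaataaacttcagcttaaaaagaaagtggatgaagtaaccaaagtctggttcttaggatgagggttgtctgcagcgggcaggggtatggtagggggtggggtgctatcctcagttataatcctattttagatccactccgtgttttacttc
Mmp14, chr14:54431348-54431597: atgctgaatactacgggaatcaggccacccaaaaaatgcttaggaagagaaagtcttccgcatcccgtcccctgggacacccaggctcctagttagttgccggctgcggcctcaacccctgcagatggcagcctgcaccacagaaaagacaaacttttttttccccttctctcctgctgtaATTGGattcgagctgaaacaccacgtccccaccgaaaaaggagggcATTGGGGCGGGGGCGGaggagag
Hspg2, chr4:137468553-137468750: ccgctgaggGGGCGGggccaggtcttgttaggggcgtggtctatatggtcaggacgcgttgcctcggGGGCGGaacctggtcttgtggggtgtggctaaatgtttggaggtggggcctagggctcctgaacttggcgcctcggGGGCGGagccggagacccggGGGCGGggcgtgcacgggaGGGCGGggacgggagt
The Hspg2 stretch of 198 bases held 5 GC boxes and was 70.2% G and C, where the median over 32851 windows cut to that length was 51.5%. The Mmp14 stretch of 250 bases held 2 GC boxes side by side, of which the first shares 1 base with a CCAAT box in reverse, and a further reverse CCAAT box upstream. It was 55.2% G and C. The Lamb2 stretch of 235 bases held 0 of the 3 motifs and was 43.0% G and C. A GC box was found in 24.3% of all windows cut to 198 bases, in 30.6% of those cut to 235 and in 32.7% of those cut to 250. For the CCAAT box these shares were 28.1%, 32.6% and 33.8%, and for the TATA box 9.1%, 11.9% and 12.4%. A match is a string of letters in this window and not a known binding site.

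Among the laminins and nidogens, Lamb2, the laminin beta 2 chain of mature glomerular and vascular basement membranes, was the gene that differed most clearly from WT. Its log2 intensity was 7.79, 7.48, 7.51 and 7.53 in WT kidneys, 7.68, 7.99 and 7.83 in Het kidneys, and 8.08, 7.99, 8.03 and 7.91 in KO kidneys. All 4 KO values lay above all 4 WT values, and the Het values ran from inside the WT range to inside the KO range. The KO minus WT difference was 0.43 ± 0.11 (SE), a fold of 1.34 (exact two-sided permutation p = 0.0286, the smallest that 70 arrangements allow), with 0.40 within slide 1 and 0.45 within slide 2. The adjusted p in limma was 0.192. The Het kidneys differed from WT by 0.26 ± 0.12 and KO from Het by 0.17 ± 0.12 (adjusted p = 0.733 and 0.939 in limma).

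Lamc1, the gamma 1 chain that most laminins share, was low in the heterozygotes. It gave 9.04, 9.11, 9.03 and 8.97 in WT, 8.72, 8.79 and 8.92 in Het, and 8.998, 9.04, 9.15 and 9.04 in KO kidneys. All 3 Het values lay below every WT and every KO value, while WT and KO overlapped. The Het kidneys differed from WT by -0.22 ± 0.10 (adjusted p = 0.732 in limma) and KO from Het by 0.25 ± 0.10 (adjusted p = 0.889). A dimmer probe of Lamc1 gave 0.075 for Het minus WT and 0.23 for KO minus WT, so the pair of probes disagreed on the first. Lamb1, the beta 1 chain of developing and tubular basement membranes, was at 8.17, 8.00 and 7.87 in Het against 8.33, 8.27, 8.39 and 8.21 in WT kidneys. Those groups did not overlap, and the KO values of 8.07, 8.37, 8.07 and 8.58 spanned both. Lama5, the alpha 5 chain paired with these, differed between KO and WT by -0.012, and the laminin linkers Nid1 and Nid2 by -0.087 and -0.00054.

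Type IV collagen chains form the network of the basement membrane. Col4a1 and Col4a2 lie head to head in the genome and encode the chains of the ubiquitous network. Col4a1 was at 11.73, 11.80, 11.72 and 11.59 in WT, 11.59, 11.22 and 11.15 in Het, and 11.64, 11.42, 11.77 and 11.85 in KO kidneys. Every Het value lay below every WT value, the nearest pair by less than 0.01, and Het 1 lay within the KO range. The heterozygotes differed from WT by -0.39 ± 0.14 (limma's adjusted p = 0.689, exact permutation p = 0.0286, the smallest that 35 arrangements allow). KO minus Het was 0.35 ± 0.14 and KO minus WT -0.043 ± 0.13 (adjusted p = 0.889 and 0.916 in limma).

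Col4a2 gave 9.82, 10.19, 9.82 and 9.91 in WT, 10.06, 9.74 and 9.80 in Het, and 10.17, 10.13, 10.10 and 10.41 in KO kidneys. The KO values lay above all 3 Het values and above 3 of 4 WT values, WT 2 being the exception. KO minus WT was 0.27 ± 0.12 (adjusted p = 0.386 in limma) and KO minus Het 0.34 ± 0.13 (adjusted p = 0.889), and Het minus WT was -0.069 ± 0.13. In the heterozygotes the partner chains thus differed from WT by -0.39 and -0.069; whether these values differ from each other was not tested.

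Of the chains of the glomerular network, Col4a4 was at 10.54, 10.42, 10.58 and 10.32 in WT, 10.36, 10.07 and 9.93 in Het, and 10.30, 11.06, 10.67 and 10.32 in KO kidneys. KO 2 stood highest, and Het 3 and Het 2 lowest. KO minus Het was 0.47 ± 0.18 (adjusted p = 0.889 in limma), and the 2 dimmer probes gave 0.40 and 0.35. For KO minus WT the same 3 probes gave 0.12, 0.25 and 0.45, all higher but over a wide span. Col4a3 differed between KO and WT by 0.20 ± 0.18 and Col4a5, whose main and further probes pointed opposite ways, by -0.17 and 0.15. Col15a1 and Col18a1, the multiplexin collagens attached to basement membranes, gave -0.074 and -0.024 in KO minus WT, and a further Col18a1 probe gave 0.36.

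Hspg2 encodes perlecan, the large heparan sulfate proteoglycan of basement membranes. It was at 9.40, 9.35, 9.20 and 9.18 in WT, 9.08, 8.91 and 9.36 in Het, and 9.32, 9.71, 9.49 and 9.56 in KO kidneys. Of the 4 KO values 3 lay above all WT and Het values, and KO 1 lay inside both ranges. The KO kidneys differed from Het by 0.41 ± 0.13 (limma's adjusted p = 0.889, exact permutation p = 0.0857), with 0.52 within slide 1 and 0.17 within slide 2, and a further probe gave 0.50. KO minus WT was 0.24 ± 0.12 (adjusted p = 0.435). Agrn, the other heparan sulfate proteoglycan, gave 12.42, 12.13, 12.13 and 12.01 in WT and 11.72, 11.66 and 12.13 in Het kidneys. Its Het 1 and Het 2 values lay below all others and Het 3 within the WT range, with Het minus WT at -0.34 ± 0.15 (adjusted p = 0.732 in limma) and KO minus WT at -0.083 ± 0.14.

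Levels of the kidney tubule markers are given beside these basement membrane values. In KO against WT, 8 of the 10 markers were higher and 2 lower, with a median difference of 0.090, and 3 were higher at an unadjusted p under 0.05, next to 6.91% of all genes. The highest difference was 1.02, for Aqp2, the collecting duct water channel, with a mean of 10.07 in WT and 11.09 in KO kidneys. The mean of their 10 log2 intensities, relative to WT, ran from -0.034 to 0.062 in WT, -0.15 to 0.015 in Het and 0.12 to 0.35 in KO kidneys, and their summed intensity from 159393 to 172756, 150083 to 164070 and 164300 to 187806. The 10 tested endothelial markers of 11 had sums of 11913 to 13819 in WT, 12497 to 14378 in Het and 12286 to 15175 in KO kidneys. Against WT, 8 of these endothelial markers were higher and 2 lower in KO kidneys (median difference 0.14). In Het kidneys it was also 8 and 2 (median 0.11). Of the 6 tested podocyte markers of 11, 3 were higher and 3 lower in KO than in WT kidneys (median difference -0.043). In Het against WT it was 5 and 1 (median 0.099), and in KO against Het 1 and 5 (median -0.17). The part of any of these marker lists in the matrix values was not tested. In RNA from kidneys without their poles, which mixes cell types, fewer cells of a type and less RNA per cell cannot be told apart.

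**Figure D2:**
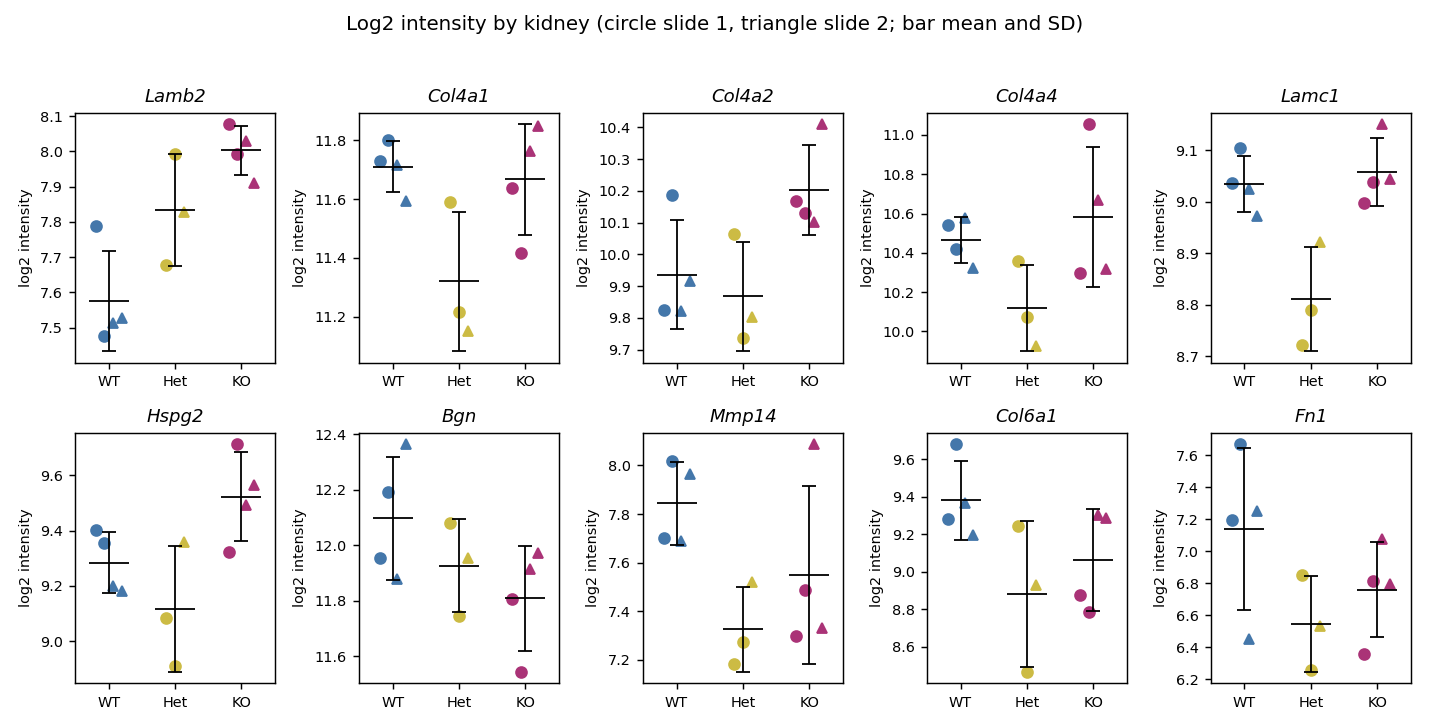
Log2 intensity of 10 matrix genes in each kidney by genotype, with slide 1 arrays as circles and slide 2 arrays as triangles; horizontal bars are group means and whiskers 1 SD (n = 4 WT, 3 Het and 4 KO). The Lamb2 panel is the one in which all 4 KO values lie above all 4 WT values; in the Col4a1, Lamc1 and Mmp14 panels all 3 Het values lie below all 4 WT values.

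In the interstitial matrix, the 5 fibrillar collagens did not pass the test in any comparison. Col1a1 and Col1a2, the chains of type I collagen, gave 0.23 ± 0.17 and -0.18 ± 0.19 in KO minus WT, and Col3a1 -0.061 ± 0.22. Col5a1, whose protein starts and limits fibril growth, was at 8.91, 9.06, 8.33 and 8.83 in WT, 8.50, 7.94 and 8.60 in Het, and 8.41, 8.01, 8.73 and 8.63 in KO kidneys. The groups overlapped, with Het 2 and KO 2 lowest, and KO minus WT was -0.34 ± 0.20 (adjusted p = 0.490 in limma). Its partner Col5a2 gave -0.12 ± 0.33, the widest SE of the list.

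Type VI collagen forms beaded filaments around cells. Col6a1 was at 9.28, 9.68, 9.37 and 9.20 in WT, 9.25, 8.47 and 8.93 in Het, and 8.88, 8.79, 9.31 and 9.29 in KO kidneys. KO 1 and KO 2, both on slide 1, lay below every WT value, and KO 3 and KO 4 lay within the WT range. KO minus WT was -0.32 ± 0.18 (adjusted p = 0.472 in limma) and Het minus WT -0.50 ± 0.19 (adjusted p = 0.716), with a further probe at -0.50 and -0.51. Col6a2 gave -0.17 ± 0.20 and -0.43 ± 0.22 in the same comparisons.

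Bgn encodes biglycan, a small leucine-rich proteoglycan that binds collagen fibrils. It gave 11.95, 12.19, 11.88 and 12.36 in WT, 12.08, 11.75 and 11.95 in Het, and 11.80, 11.54, 11.91 and 11.97 in KO kidneys. KO 1 and KO 2 lay below all WT values and the other KO values inside the WT range. KO minus WT was -0.29 ± 0.14 (adjusted p = 0.403 in limma), and it was lower on both slides, -0.40 and -0.18. Its relatives Dcn and Lum, decorin and lumican, gave -0.088 ± 0.17 and -0.40 ± 0.25.

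Among elastic fibre and crosslinking genes, Lox, the lysyl oxidase that crosslinks collagen and elastin, was at 6.41, 6.66, 6.84 and 7.01 in WT, 6.72, 6.88 and 6.39 in Het, and 6.85, 7.46, 7.25 and 6.74 in KO kidneys. KO 2 and KO 3 lay above all other arrays and KO 1 and KO 4 inside the WT range. KO minus WT was 0.35 ± 0.18 (adjusted p = 0.437 in limma). The related Loxl1 gave -0.16 ± 0.16 and Eln, the elastin gene, -0.040 ± 0.15.

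Fn1 encodes fibronectin, an adhesive protein laid down early in scarring. It was at 7.20, 7.67, 6.45 and 7.25 in WT, 6.85, 6.25 and 6.53 in Het, and 6.36, 6.81, 7.07 and 6.79 in KO kidneys. WT 3 lay among the Het and KO values and the other 3 WT values lay above them. The Het kidneys differed from WT by -0.59 ± 0.25 (adjusted p = 0.720 in limma) and the KO kidneys by -0.38 ± 0.23 (adjusted p = 0.505), but a further Fn1 probe gave -0.10 and -0.054. Sparc, a collagen-binding matricellular protein, gave -0.061 ± 0.13 in KO minus WT, and Ctgf, a growth factor modulator induced by TGF-beta, -0.14 ± 0.12.

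Of the proteases, Mmp14, the membrane-bound metalloproteinase that activates Mmp2, was at 7.70, 8.02, 7.69 and 7.96 in WT, 7.18, 7.27 and 7.52 in Het, and 7.30, 7.49, 8.09 and 7.33 in KO kidneys. All 3 Het values and 3 of 4 KO values lay below the WT range, while KO 3 lay above it. The Het difference from WT was -0.52 ± 0.18 (limma's adjusted p = 0.687, exact permutation p = 0.0286, the smallest that 35 arrangements allow). KO minus WT was -0.29 ± 0.17 (adjusted p = 0.477 in limma), and -0.47 without KO 3. Mmp2, a gelatinase, gave -0.17 ± 0.14 in KO minus WT. The protease inhibitor Timp3, which is bound to matrix, was at 13.66, 13.71, 13.78 and 13.48 in WT, 13.27, 13.44 and 13.45 in Het, and 13.53, 13.79, 13.52 and 13.58 in KO kidneys. The Het values lay just below both other groups, with Het minus WT at -0.27 ± 0.12 (adjusted p = 0.726 in limma), and a further probe gave 0.0051. Timp2 gave 0.088 ± 0.12 in KO minus WT.

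The cytokine Tgfb1, the main profibrotic growth factor, differed between KO and WT by -0.020 ± 0.18, and the mesenchymal filament gene Vim by 0.19 ± 0.15. Acta2, the smooth muscle actin that also marks myofibroblasts, gave 11.28, 11.14, 11.41 and 11.63 in WT, 11.65, 11.07 and 12.11 in Het, and 11.79, 10.81, 11.61 and 11.35 in KO kidneys. Het 3 was highest and KO 2 lowest, and KO minus WT was 0.023 ± 0.23. Of 9 smooth muscle markers 7 were tested, and 3 of these were detected on every array. The scores of the 7 were also highest in Het 3 (0.44) and KO 1 (0.37) and lowest in KO 2 (-0.29). Their summed intensities ordered the arrays otherwise, with the highest sum in a WT kidney. The sums ran from 3911 to 5249 in WT, 3359 to 5141 in Het and 3617 to 4369 in KO kidneys. Whether those cells set the Acta2 values was not tested.

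**Figure D3:**
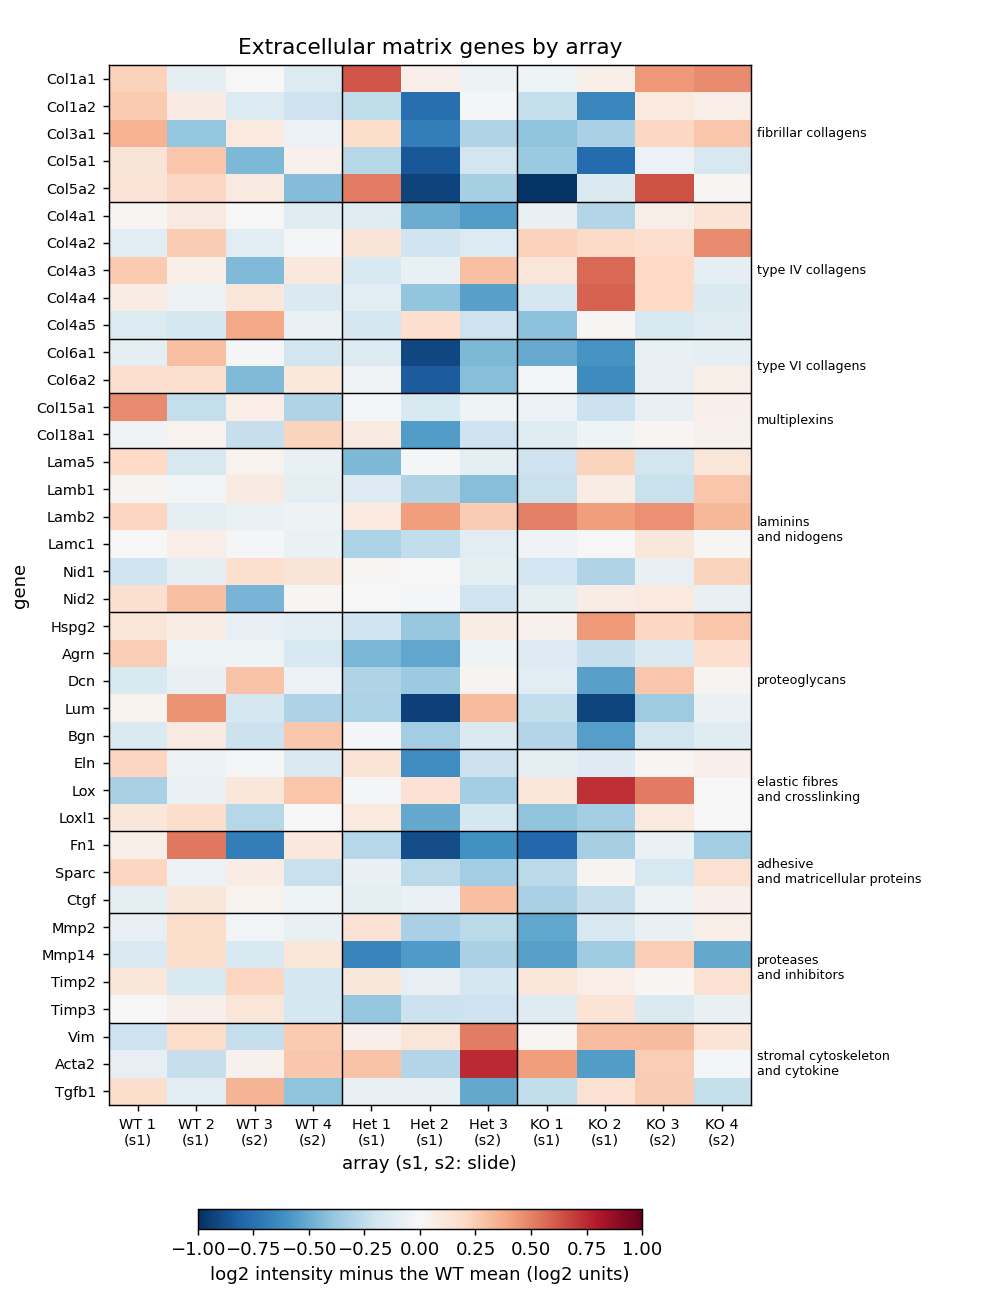
Log2 intensity minus the WT mean for the 38 tested matrix genes (rows, by role) on each of the 11 arrays (columns; s1 and s2 give the slide). Het 2 shows low values across fibrillar, type VI and proteoglycan genes, and KO 1 and KO 2 (slide 1) show low fibrillar collagens. Col1a1 is the exception and lies near the WT mean on these arrays. The Lamb2 row is high in all 4 KO kidneys.

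Some arrays lay low across many of these genes. The mean over the 38 genes of log2 intensity relative to WT was 0.057, 0.046, -0.054 and -0.050 in WT, -0.067, -0.34 and -0.14 in Het, and -0.17, -0.11, 0.073 and 0.041 in KO kidneys. Het 2 stood lowest, and the KO kidneys of slide 1 lay below those of slide 2. Het 2 was among the lowest 3 arrays for 25 of the 38 genes, KO 1 for 18, Het 3 for 16 and KO 2 for 14, against 2 for KO 3 and 1 for KO 4. For the fibrillar collagens alone the means were 0.22, 0.017, -0.080 and -0.16 in WT, 0.16, -0.63 and -0.18 in Het, and -0.41, -0.37, 0.26 and 0.13 in KO kidneys.

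Within the slides the KO minus WT medians of the list pointed opposite ways. On slide 1, 9 of 38 genes were higher in KO, with a median of -0.19 and 7 genes lower at an unadjusted p under 0.05, next to 4.89% of all genes on that slide. On slide 2 it was 31 of 38, with a median of 0.079. Of the 38 genes 24 had opposite signs on the slides, where 4744 of 12179 genes over the whole table did. All 5 fibrillar collagens were lower in KO on slide 1 and higher on slide 2: Col1a2 by -0.62 and 0.25, Col5a1 by -0.77 and 0.096, and Col5a2 by -0.74 and 0.50. Fn1 gave -0.85 and 0.084, Lum -0.82 and 0.028, and Col6a1 -0.65 and 0.014.

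Other members held their direction on both slides. Besides Lamb2, they included Col4a2 (0.14 and 0.39), Hspg2 (0.14 and 0.34), Col4a3 (0.18 and 0.22), Lox (0.62 and 0.068), Vim (0.17 and 0.22), Bgn and Mmp14 (-0.47 and -0.12). Each slide holds 2 arrays of either genotype. On slide 1 both WT arrays, Het 1 and KO 1 came from mice at day 59, and Het 2 and KO 2 from day 58. All arrays of slide 2 came from day 58. Slide and day thus partly coincide, and within slide 1 day and genotype do too. With day and slide both in the model, the list's median was -0.020 in KO against WT, with 18 of 38 genes higher. It was -0.13 in Het against WT and 0.17 in KO against Het. The difference between slides was tested as an interaction of slide and genotype, a test added after the values were seen. It gave an unadjusted p under 0.05 for 4 of the 38 genes, next to 3.68% of all genes, and no adjusted p under 0.999 for any of the 38 in limma. With the slide as a block, 1 gene (Lamb2) was higher in KO than in WT at an unadjusted p under 0.05.

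The 10 tested fibroblast and pericyte markers of 11, of which 9 were detected on every array and Gli1 was not tested, had summed intensities of 2287 to 2387 in WT, 2102 to 2371 in Het and 1964 to 2321 in KO kidneys. Against WT, 2 of these markers were higher and 8 lower in KO kidneys (median difference -0.12). In Het kidneys it was 4 and 6 (median -0.076). KO 2 had the lowest score (-0.35) and Het 2 the next lowest (-0.16), arrays that also ranked low for the fibrillar collagens. KO 1, which had a fibrillar collagen score of -0.41, had a fibroblast score of -0.058, above those of KO 3 (-0.067) and KO 4 (-0.11). Their part in those values was not tested.

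**Figure D4:**
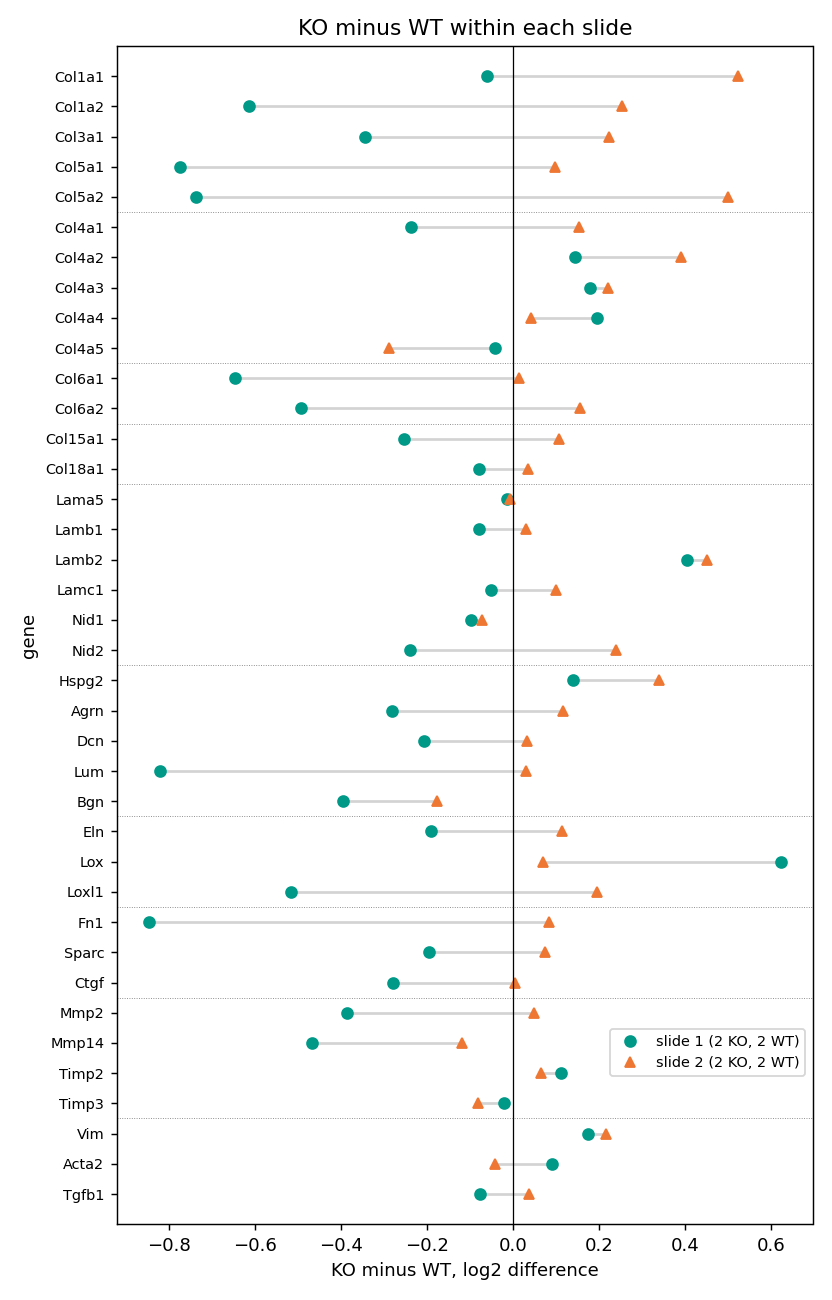
KO minus WT log2 difference of each tested matrix gene within slide 1 (circles) and within slide 2 (triangles), each from 2 KO and 2 WT arrays; grey lines join the values of a gene and dotted lines separate the roles. The fibrillar collagens lie left of 0 on slide 1 and right of 0 on slide 2, while the Lamb2 values lie together at 0.40 and 0.45.

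A further 21 tested probes covered 16 of the 38 genes. Of these 21, 12 had the sign of the main probe in KO minus WT, 13 in Het minus WT and 16 in KO minus Het. The probes gave unlike values for Col18a1, Col4a5, Sparc, Timp3 and Fn1 in particular.

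Other matrix genes, drawn from 168 listed names of which 114 were tested, included Tnn, the one of the 114 that passed limma's adjusted threshold with 1 probe per gene. Tnn encodes tenascin-N, a glycoprotein of the tenascin family. It was at 4.87, 4.45, 4.98 and 4.90 in WT, 5.31, 5.81 and 5.68 in Het, and 6.72, 6.26, 5.68 and 6.37 in KO kidneys. No WT array had a detection p under 0.01, all 3 Het and all 4 KO arrays did, and all of them lay above the WT values. Tnn rose in KO against WT at least 2.15-fold, a bound taken on each WT array against the dimmest detected signal, or the Tnn probe itself where brighter (fitted difference 1.46 ± 0.20, adjusted p = 0.0321 in limma). In Het against WT the bound was 1.36-fold, and the difference did not pass the test (adjusted p = 0.661 in limma). The bound allows for undetected signal and not for the spread between kidneys.

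Of the 114 genes 14, Tnn among them, were higher and 7 lower in KO against WT at an unadjusted p under 0.05, next to 6.91% and 5.81% of all genes. In Het against WT it was 5 and 7, next to 3.2% and 3.09%, and in KO against Het 9 and 1, next to 3.01% and 2.33%. This list was chosen with earlier results of these data known, so the shares are no test of it. Among the 14 genes higher in KO than in WT, Emilin2, an elastic fibre glycoprotein, differed by 0.70 ± 0.19 (adjusted p = 0.195 in limma). Its detection p was under 0.01 in 4 of 4 KO and 2 of 4 WT kidneys. Tgfb3, a TGF-beta ligand, was detected in 4 of 4 KO, 1 of 3 Het and 0 of 4 WT kidneys. The same bound for KO against WT was 1.21-fold, and the difference did not pass the test (adjusted p = 0.211 in limma). By role, the genes higher and lower in KO against WT at that threshold were 6 and 1 of 25 glycoproteins, 4 and 0 of 18 receptors, 3 and 0 of 8 genes of the TGF-beta pathway, and 1 and 0 of 10 laminins and other basement membrane genes. They were 0 and 2 of 14 collagens, 0 and 2 of 11 genes of collagen synthesis and crosslinking, 0 and 1 of 6 proteoglycans, and 0 and 1 of 22 proteases and inhibitors.

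For the heterozygotes, Antxr2, a receptor that binds laminin and type IV collagen, differed from WT by 0.34 ± 0.11, and Col7a1, the anchoring fibril collagen, by 0.44 ± 0.15 (adjusted p = 0.661 and 0.663 in limma). Col7a1 was dim, with a detection p under 0.01 in 2 of 4 WT and 3 of 3 Het kidneys. In KO against Het the genes with the smallest p were Itga6, a laminin receptor subunit (0.47 ± 0.15), Antxr1, a collagen receptor (0.42 ± 0.13), and Sparcl1, a relative of Sparc (0.54 ± 0.17), all with an adjusted p of 0.889 in limma. The brightest Antxr1 probe gave 0.31 ± 0.12 in KO minus WT (adjusted p = 0.317 in limma), whereas a dimmer one rose by 0.74 ± 0.11 (adjusted p = 0.0409); over all 195 tested probes of these other matrix genes, it and Tnn were the 2 that passed.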

How the data were processed

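Per the file headers, the deposited raw table gives each array's intensity (linear scale) and detection p-value per probe. BeadStudio is named by the submitters' processing notes, with the background treatment not given in the sources consulted. Groups follow the genotype labels, where each sample is 1 numbered mouse; replicate numbers are only names. Background was corrected with normexp in limma 3.58.1 under R 4.3.3 (negative controls inferred from the detection p-values, offset 16), followed by quantile normalization and log2. The offset makes differences of dim probes smaller. A second deposited table held the authors' processed intensities, within a median of 0.00392 of a quantile normalization of the first, and served as an alternative. All 11 arrays entered 1 model with a mean per genotype, with two-sided tests adjusted by Benjamini-Hochberg over the tested probes, and single values were also compared by exact permutation of the arrays. The exact p-values are not adjusted. Those printed belong to members picked for a small p in limma, so they are no independent support. The number of arrays limits the precision. The model was tested on simulated data with changes of at least 1 log2 unit either way in KO. All member differences were smaller, so the simulation does not show how often changes of their size would be found. All 42 members were named. Values on every array were given for the 8 members with the smallest p in KO against WT and the 5 in each other comparison. The 3 other matrix genes with the smallest p in each comparison were also named. Lamb1, Agrn, Acta2 and further genes given with values were chosen after their values were seen. Members and lists were chosen with earlier results of these data known. Alternatives covered background, offset, normalization, detection filter, slide, postnatal day, array weights, probe choice and leaving out arrays.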

Additional observations from a re-analysis of the deposited data

Results flagged for a closer look

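In 2 of 76 gene and genotype groups of 4 arrays, 1 array stood far from the other 3 by Dixon's test, which chance does in about 1 of 20 groups. Col6a2 was at 5.64 in WT 3, below 6.19 to 6.25 in the other WT kidneys. Lamb2 was at 7.79 in WT 1, above 7.48 to 7.53 in the other WT kidneys; without WT 1 the Lamb2 difference between KO and WT was 0.50 in place of 0.43.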

How the results depend on the processing

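The count of list members past the adjusted threshold stayed at 0 in all 3 comparisons under all 27 alternative settings, and the smallest adjusted p of a member under any of them was 0.144 (KO against WT), 0.503 (Het against WT) and 0.690 (KO against Het) in limma. The calls over all probes in KO against WT ranged from 0 to 15, against 9. The member median in KO against WT moved to 0.066 with a median shift per array, to -0.19 on slide 1 alone and to 0.079 on slide 2 alone. In Het against WT it moved to -0.089 with the median shift and ran from -0.26 to -0.089 over the fits that left out 1 array. In KO against Het it was 0.055 on slide 1 alone and 0.055 to 0.21 with 1 array left out. On slide 2 alone the KO minus WT differences of Col6a1 and Col5a1 reversed, to 0.014 and 0.096. The causes were not tested. Of the members, 10 held their sign under all settings in KO against WT (7 higher, 3 lower). In Het against WT 19 did (2 and 17), and in KO against Het 20 did (18 and 2). The same count over all genes was not made. The median shift per array turned the sign of 12, 7 and 3 members respectively. It also moved the median of all probes, to 0.11, 0.096 and 0.011. The other settings of background, offset and normalization turned no sign. Lamb2 ranged from 0.35 to 0.60 in KO minus WT. Without the 3 arrays highest in adipose markers, 4 members were higher and 1 lower at an unadjusted p under 0.05 in KO against WT. The share of all genes at that threshold was not counted in this fit, so these counts have no background beside them. The member median in it was -0.062. No paired analysis was possible because the labels carry no replicate numbers that pair mice; the slide served as a block instead. With 4, 3 and 4 arrays, differences of dim probes such as Col5a2 are the least precise.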
